A study of Mus musculus with 16 samples.

Results

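A set of 8 genes that encode surface adhesion proteins of olfactory sensory axons were followed across 16 olfactory neuron libraries: Kirrel2, Kirrel3, Ncam1, L1cam, Cntn4, Pcdh17, Pcdh19 and Tenm4. They were chosen by name as adhesion genes of glomerular axon sorting, and all 8 of 8 were found, each by a single probe set, among 19505 named genes on the array. Their log2 signals were read in every library by titled group and by pool of mice.

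The study used S100a5-tauGFP mice, a reporter line in which the gene S100a5 drives GFP fused to tau. Transcription of S100a5 in olfactory sensory neurons is known to depend on odor-evoked activity, so the reporter marks neurons by their recent activity. The mice were of strain C57BL/6, of both sexes and 7 to 12 weeks old, and the sex of each pool was not given in the sources used here. Each of 24 mice stayed alone for 40 h in a chamber flushed with clean air at 3.1 L/min. After 26 h, 10 s pulses were given every 20 min, and what they carried set the condition: filtered air alone for vehicle mice, and isoamyl acetate, the ester of banana oil, for odor mice. Olfactory mucosa from 3 mice at a time was pooled, dissociated and sorted for GFP, so that each of 8 pools yielded a pair of libraries titled GFP+ and GFP-, in 4 groups of 4. RNA was hybridised to Clariom S mouse arrays.

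The titles and the cell type field of the labels give opposite GFP signs in all 16 samples, and libraries are named here by title. S100a5 itself was lower in the library titled GFP+ than in the library titled GFP- in all 8 pools, with a difference of -1.18 in vehicle and -1.25 in odor on the log2 scale (limma, adjusted p = 0.000442 and 0.000222), which goes against the titles. Every sort difference below is titled GFP+ minus titled GFP- and changes its sign if the cell type field holds. Array medians were 6.79 to 6.90 log2 units in libraries titled GFP+ and 6.42 to 6.52 in libraries titled GFP-. Mature neuron markers were high in all libraries, where the log2 of their summed signals was 21.21 to 21.69 over 23 genes. Non-neuronal markers differed with the sort. All 17 neutrophil and macrophage markers were higher in vehicle and 16 of 17 in odor, with a median difference of 6.71 and 6.81. The log2 of their summed signals was 18.69 to 19.87 in libraries titled GFP+ against 9.95 to 11.88 in libraries titled GFP-. In the latter, Camp, Csf3r and Itgam did not exceed the median negative control. Sustentacular markers (9 of 12) and microvillar cell markers (8 of 8) were higher in both conditions. Among all 22206 probe sets tested, 2260 were called higher in vehicle and 2449 in odor. The part of these other cells in the sort differences of the adhesion genes was not tested.

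An olfactory sensory neuron expresses a single odorant receptor, and the axons of all neurons that share a receptor converge on the same glomeruli of the olfactory bulb. This local sorting is known to rely on homophilic adhesion proteins whose amounts differ between neurons with different receptors. Kirrel2 and Kirrel3 are the standard example: they are found on complementary sets of axons, with neuronal activity known to favour Kirrel2 and its absence Kirrel3. Contactins, L1-family proteins, non-clustered protocadherins and teneurins add further axes of like-to-like or partner adhesion, while Ncam1 is carried broadly by olfactory axons.

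Promoter sequences from RefSeq (build GRCm38.p6, 250 bases before to 50 bases after each start) covered 6 of the 8 genes with 9 start sites. Kirrel3 and Ncam1 had no entry. The upstream 250 bases are shown for Kirrel2 and Pcdh17, the genes whose signal was lower in the library titled GFP+ in all 8 pools, and for the second start site of Cntn4, the only one of the 9 with a match to a searched motif. They lie at chr7:30457516-30457765 on the minus strand (Kirrel2), chr14:84443313-84443562 on the plus strand (Pcdh17) and chr6:106118692-106118941 on the plus strand (Cntn4), and run 5′ to 3′ along the gene with capitals marking the motif match.
Kirrel2: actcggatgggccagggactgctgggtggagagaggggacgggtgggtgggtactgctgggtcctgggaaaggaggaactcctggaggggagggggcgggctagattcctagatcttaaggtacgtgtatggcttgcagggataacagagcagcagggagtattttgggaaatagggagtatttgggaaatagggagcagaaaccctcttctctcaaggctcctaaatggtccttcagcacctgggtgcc
Pcdh17: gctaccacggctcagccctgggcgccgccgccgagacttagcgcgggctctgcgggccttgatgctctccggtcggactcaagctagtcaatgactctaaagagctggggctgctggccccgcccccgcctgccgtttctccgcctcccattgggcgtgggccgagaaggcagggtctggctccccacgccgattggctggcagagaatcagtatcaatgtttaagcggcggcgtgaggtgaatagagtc
Cntn4 second start: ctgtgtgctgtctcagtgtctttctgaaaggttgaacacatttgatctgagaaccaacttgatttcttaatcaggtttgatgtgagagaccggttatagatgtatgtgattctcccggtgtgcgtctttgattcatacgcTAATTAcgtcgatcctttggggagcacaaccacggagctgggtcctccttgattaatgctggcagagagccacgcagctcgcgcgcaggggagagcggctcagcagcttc
The motifs were searched on both strands of the whole 300-base window. TAATTA, a core bound by many homeodomain factors, lay at position -110 relative to the second Cntn4 start and occurs in 5.29% of the 32851 promoters in the table. The early B-cell factor site, TCCC and GGGA with any 2 bases between them, was in 0 of the 9 windows and in 0.904% of all promoters. The cyclic AMP response element TGACGTCA was in 0 of 9 (1.79% of all), and its shorter form TGACG, which the full site contains, in 0 of 9 (20.8% of all). These letter matches describe the windows only.

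Detection came first. All 8 genes exceeded their array's median negative control probe set in 16 of 16 libraries. Of these, 7 also exceeded the 95th percentile of the negative controls in 16 of 16 libraries. Tenm4 exceeded that percentile in 0 of 16: its log2 signal ran from 6.93 to 7.97, against a 95th percentile of 9.39 to 10.09, so Tenm4 values lie within the upper spread of probe sets that target nothing. Signals are not comparable between probe sets, and only differences within a gene are read below.

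The sort comparison asks how cells collected under the 2 titles differed. In bulk libraries, fewer cells of a type and less RNA per cell cannot be told apart. Among the 8 genes, Pcdh17 was the gene called in vehicle and in odor, and it was lower in libraries titled GFP+ both times. With adjusted p under 0.05 as the threshold, that is 1 of 8 in each condition, beside 17.3% of all 22206 probe sets called in vehicle (7.16% lower) and 20.9% in odor (9.86% lower), a share near the background. The median sort difference of the 8 genes was -0.13 in vehicle and -0.14 in odor, and the median of all probe sets was -0.13 and -0.14.

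**Figure D1:**
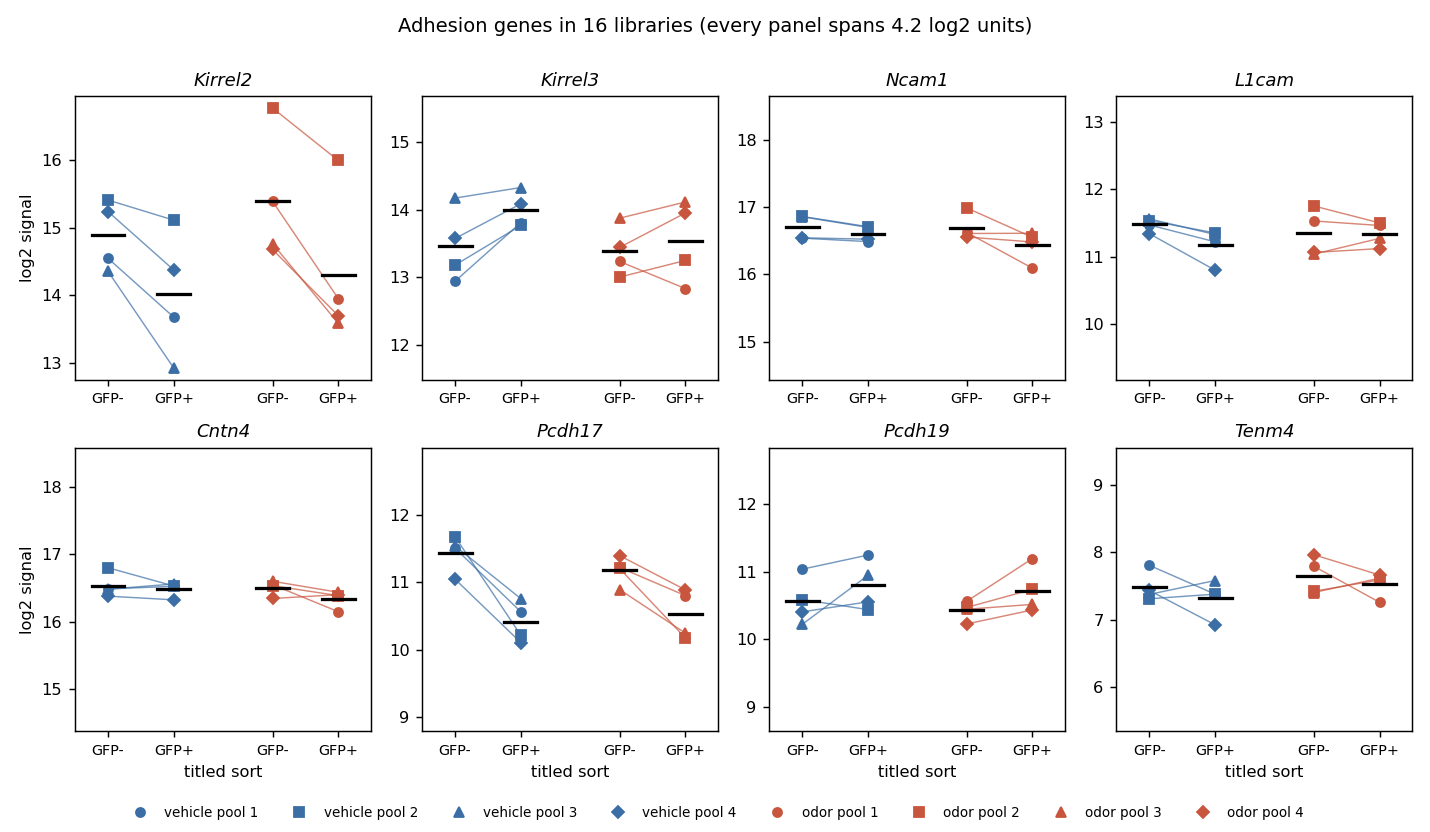
Log2 signal of each adhesion gene in the 16 libraries, by titled sort (x axis), with vehicle pools in blue, odor pools in red, a line joining the libraries of the same 3 mice and a black bar at each group mean; every panel spans the same number of log2 units. Kirrel2 falls along all 8 lines while its pools lie far apart, Pcdh17 falls along all 8 lines with little spread between pools, and the lines of Ncam1 and Cntn4 span less than those of Kirrel2.

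Pcdh17 is a non-clustered protocadherin of the delta group, a homophilic adhesion protein whose relatives sort axons of like type (probe set TC1400001115.mm.2, chromosome 14). In vehicle mice, libraries titled GFP- read 11.51, 11.68, 11.54 and 11.05 in pools 1 to 4, and libraries titled GFP+ read 10.56, 10.22, 10.76 and 10.11. Each titled GFP+ library lay below each titled GFP- library. The difference was -1.03 (SE 0.20, 95% interval -1.45 to -0.61; limma, adjusted p = 0.00107), lower in 4 of 4 pools. In odor mice, libraries titled GFP- read 11.22, 11.21, 10.90 and 11.40, and libraries titled GFP+ read 10.81, 10.18, 10.25 and 10.89. The groups again did not overlap, but the highest titled GFP+ library (pool 4) lay just under the lowest titled GFP- library (pool 3). The difference was -0.65 (SE 0.20, interval -1.07 to -0.23; limma, adjusted p = 0.0275), lower in 4 of 4 pools. Groups that are separated in this direction were found for 12.0% of all probe sets in vehicle and 11.3% in odor.

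The odor call for Pcdh17 missed the threshold with fewer pools: without odor pool 1, 2 or 3 the difference was -0.73, -0.52 and -0.65, and the limma adjusted p was 0.0538, 0.14 and 0.0582. It also missed the threshold when arrays were centred on mature neuron markers (-0.59, adjusted p = 0.101) and when the spread came from the odor groups alone (adjusted p = 0.0541). The vehicle call passed without any one of the 8 pools, with adjusted p of 0.00112 to 0.0194. Whether the sort difference was smaller in odor than in vehicle was tested as an interaction, which came to 0.38 (interval -0.21 to 0.98; adjusted p = 1 in the limma fit).

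Kirrel2, the Ig-superfamily protein known to rise with neuronal activity, gave the widest spread of the 8 (probe set TC0700002760.mm.2, chromosome 7). In vehicle mice, pools 1 to 4 read 14.55, 15.41, 14.35 and 15.24 in libraries titled GFP- and 13.67, 15.11, 12.92 and 14.37 in libraries titled GFP+. In odor mice they read 15.39, 16.78, 14.76 and 14.68 in libraries titled GFP- and 13.95, 15.997, 13.58 and 13.70 in libraries titled GFP+. The groups overlapped in both conditions, yet within every pool the library titled GFP+ was the lower of the pair. The pool differences were -0.87, -0.30, -1.43 and -0.87 log2 units in vehicle pools 1 to 4 and -1.44, -0.78, -1.18 and -0.98 in odor pools 1 to 4. Of all probe sets, 15.1% were lower in all 8 pools.

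The test without pools did not call Kirrel2, at -0.87 in vehicle (SE 0.56, interval -2.06 to 0.32; limma, adjusted p = 0.321) and -1.10 in odor (SE 0.56, interval -2.28 to 0.09; limma, adjusted p = 0.183). Both libraries of a pool come from the same mice, and with the pool as a block the same differences had a limma adjusted p of 0.00576 in vehicle and 0.00123 in odor. The pool block called 3 of the 8 genes in vehicle, beside 21.1% of all probe sets, and 2 in odor, beside 26.1%. With the pool as a random effect instead, Kirrel2 was not called, with a limma adjusted p of 0.177 and 0.0802. That fit gave every probe set the same correlation between libraries of a pool, 0.234, below the r of 0.93 for Kirrel2 given below. The pool means of Kirrel2 had an SD of 0.90 within a condition, against an SD of 0.38 for the pool differences, and no other of the 8 had pool means as widely spread. Its signals in the 2 sorts gave r = 0.93 over 8 pools, which share mice and processing within each point.

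Kirrel3, the partner gene known to be favoured on less active axons, differed in the other direction (probe set TC0900000313.mm.2, chromosome 9). In vehicle mice, pools 1 to 4 read 12.94, 13.18, 14.17 and 13.57 in libraries titled GFP- and 13.81, 13.77, 14.33 and 14.09 in libraries titled GFP+. In odor mice they read 13.23, 13.00, 13.87 and 13.44 in libraries titled GFP- and 12.83, 13.25, 14.11 and 13.95 in libraries titled GFP+. The library titled GFP+ was the higher of the pair in 4 of 4 vehicle pools and 3 of 4 odor pools, with odor pool 1 the exception at -0.40, and the groups overlapped in both conditions. Of all probe sets, 16.1% were higher in at least 7 pools. The difference was 0.53 in vehicle (SE 0.29, interval -0.09 to 1.15; limma, adjusted p = 0.239) and 0.15 in odor (interval -0.47 to 0.77; limma, adjusted p = 0.754). With the pool as a block the vehicle difference passed the test (limma, adjusted p = 0.0428) and the odor difference did not (0.526). With the pool as a random effect, at the same shared correlation, neither passed (limma, adjusted p = 0.125 and 0.677). The direction depended on the scale: with each array centred on its median, the Kirrel3 difference was 0.16 in vehicle and -0.22 in odor, and it was higher in 4 and lower in 4 of the 8 pools.

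A contrast of the 2 Kirrel genes within each library cancels any scaling shift that all probe sets of an array share. The log2 signal of Kirrel2 minus that of Kirrel3 changed from titled GFP- to titled GFP+ by -1.40 ± 0.37 (SD, n = 4 pools) in vehicle, from -1.74 to -0.89, and by -1.25 ± 0.25 (SD, n = 4) in odor, from -1.49 to -1.03. It fell in 8 of 8 pools, which is also what quantile-normalised arrays gave (-1.41 and -1.25). The pair was chosen for its known complementarity, so these values are a description with no test. Within groups, the 2 genes had r = -0.51 over the 16 libraries, whose points share pools and arrays. The lowest Kirrel3 libraries of the odor mice came from pools 1 and 2, which held the highest Kirrel2 libraries. In vehicle mice the lowest Kirrel3 libraries also came from pools 1 and 2, but the highest Kirrel2 libraries came from pools 2 and 4.

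**Figure D2:**
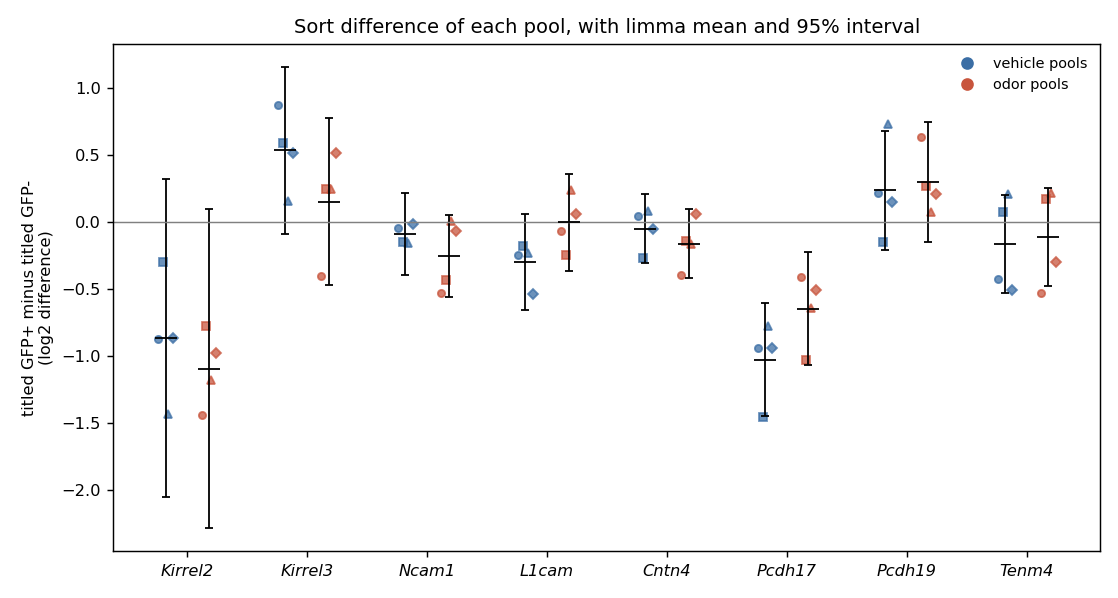
Sort difference (titled GFP+ minus titled GFP-, log2) of each adhesion gene, with a point for each pool (vehicle blue, odor red), the limma estimate as a dash and its 95% interval as a bar. All 8 points of Kirrel2 and of Pcdh17 lie below 0, but the wide Kirrel2 intervals cross 0 and those of Pcdh17 do not.

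Ncam1, the neural cell adhesion molecule that carries polysialic acid, and L1cam, the founding L1-family protein of axon bundling, were not called in either condition. Ncam1 (chromosome 9) had means of 16.70 ± 0.18 (titled GFP-) and 16.60 ± 0.12 (titled GFP+) for vehicle mice, and of 16.69 ± 0.20 and 16.43 ± 0.23 for odor mice (SD, n = 4 each). It was lower in the library titled GFP+ in 7 of 8 pools, with -0.53 the largest drop, and 31.6% of all probe sets were lower in at least 7. The Ncam1 difference was -0.10 in vehicle (interval -0.40 to 0.21; limma, adjusted p = 0.696) and -0.26 in odor (interval -0.56 to 0.05; limma, adjusted p = 0.221). L1cam (chromosome X) read 11.47, 11.54, 11.56 and 11.34 in the vehicle libraries titled GFP- and 11.22, 11.35, 11.33 and 10.80 in those titled GFP+. The ranges met, since titled GFP- pool 4 lay just under titled GFP+ pool 2, while each vehicle pool fell from one sort to the other. The L1cam difference was -0.30 in vehicle (interval -0.66 to 0.06; limma, adjusted p = 0.251). In odor it was -0.01 (interval -0.37 to 0.35; limma, adjusted p = 0.983), with 2 pools lower and 2 higher, and its sign turned under quantile normalization (0.04) and under centring on mature neuron markers (0.05).

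Cntn4, a GPI-anchored contactin found on olfactory axons in a receptor-dependent mosaic, was the steadiest of the 8 (chromosome 6). Its group means were 16.54 ± 0.18 and 16.49 ± 0.11 in vehicle libraries titled GFP- and GFP+, and 16.51 ± 0.11 and 16.34 ± 0.13 in odor libraries (SD, n = 4 each). Pools split, with 5 of 8 lower in the library titled GFP+ and differences from -0.40 to 0.08. The fitted Cntn4 difference was -0.05 in vehicle (interval -0.31 to 0.21; limma, adjusted p = 0.81) and -0.16 in odor (interval -0.42 to 0.09; limma, adjusted p = 0.37). Across both conditions these intervals, on the deposited scale, reach no lower than -0.42 and no higher than 0.21. With arrays centred on their medians, Cntn4 was lower in 8 of 8 pools. On that scale the median difference of all probe sets was -0.50 in both conditions, and 62.5% and 61.6% were called lower.

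Pcdh19, a delta protocadherin like Pcdh17, was not called in either condition (chromosome X). In vehicle mice, pools 1 to 4 read 11.04, 10.59, 10.22 and 10.40 in libraries titled GFP- and 11.25, 10.44, 10.95 and 10.55 in libraries titled GFP+. In odor mice they read 10.56, 10.47, 10.44 and 10.23, then 11.19, 10.74, 10.52 and 10.43. The groups overlapped in both conditions, with 7 of 8 pools higher in the library titled GFP+ and vehicle pool 2 lower. The Pcdh19 difference was 0.23 in vehicle (interval -0.21 to 0.68; limma, adjusted p = 0.485) and 0.30 in odor (interval -0.15 to 0.74; limma, adjusted p = 0.345), and with arrays centred on their medians it turned to -0.14 and -0.07. Tenm4, a teneurin that binds itself and latrophilins, stayed within the negative-control spread given above (chromosome 7). Its group means ran from 7.32 to 7.65, 4 pools were lower and 4 higher, and the fitted difference was -0.17 in vehicle and -0.11 in odor (limma, adjusted p = 0.552 and 0.678).

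The scale mattered for the group as a whole. Centring every array on its median moved the median difference of all probe sets from -0.13 to -0.50 in vehicle and from -0.14 to -0.50 in odor. It then called 5 of the 8 genes lower in each condition, beside 62.5% and 61.6% of all probe sets called lower. On that scale Kirrel2, Ncam1, L1cam, Cntn4, Pcdh17 and Tenm4 were lower in all 8 pools. The share of all probe sets lower in all 8 pools on that scale was not counted. The intervals of the interaction between odor and sort held 0 for all 8 genes, from -0.38 (Kirrel3, interval -1.26 to 0.49) to 0.38 (Pcdh17). None of the 8 was called (limma, adjusted p = 1 for each), beside 0.00450% of all probe sets.

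The odor comparison asks whether pulses of isoamyl acetate moved the adhesion genes within a sort. None of the 8 was called in either sort, beside 0.0180% of all probe sets in libraries titled GFP- (4 of 22206) and 0.00901% in libraries titled GFP+ (2 of 22206). At an unadjusted p under 0.05, limma passed 0 of the 8 in either sort, against 733 of all probe sets in libraries titled GFP- and 1072 in those titled GFP+. Odor and vehicle libraries overlapped for each of the 8 genes in both sorts. The share of all probe sets that overlapped in this way was not counted.

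Kirrel2 had the widest interval of the 8 in both sorts and, in libraries titled GFP-, the estimate farthest from 0. It was 0.51 higher in odor than in vehicle libraries titled GFP- (interval -0.67 to 1.70; limma, adjusted p = 1) and 0.29 higher in those titled GFP+ (interval -0.90 to 1.47; limma, adjusted p = 0.988). Leaving out single pools moved the estimate from 0.06 to 0.76 in titled GFP- and from -0.28 to 0.65 in titled GFP+. In all 4 groups the pool numbered 2 held the highest Kirrel2 library, although vehicle and odor pools of a number are different mice.

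The other 7 genes had narrower intervals. Kirrel3 differed by -0.08 in libraries titled GFP- (interval -0.70 to 0.54) and by -0.46 in those titled GFP+ (interval -1.08 to 0.16; limma, adjusted p = 0.968). Pcdh17 differed by -0.26 (interval -0.68 to 0.16) and 0.12 (interval -0.30 to 0.54), so the direction was not shared between the sorts. Ncam1 differed by -0.01 and -0.17, Cntn4 by -0.03 and -0.14 and Pcdh19 by -0.14 and -0.08 in libraries titled GFP- and GFP+. L1cam differed by -0.13 and 0.16, and Tenm4 by 0.16 and 0.22. Of these 5, the widest interval was that of Pcdh19, from -0.58 to 0.31 and from -0.52 to 0.37.

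**Figure D3:**
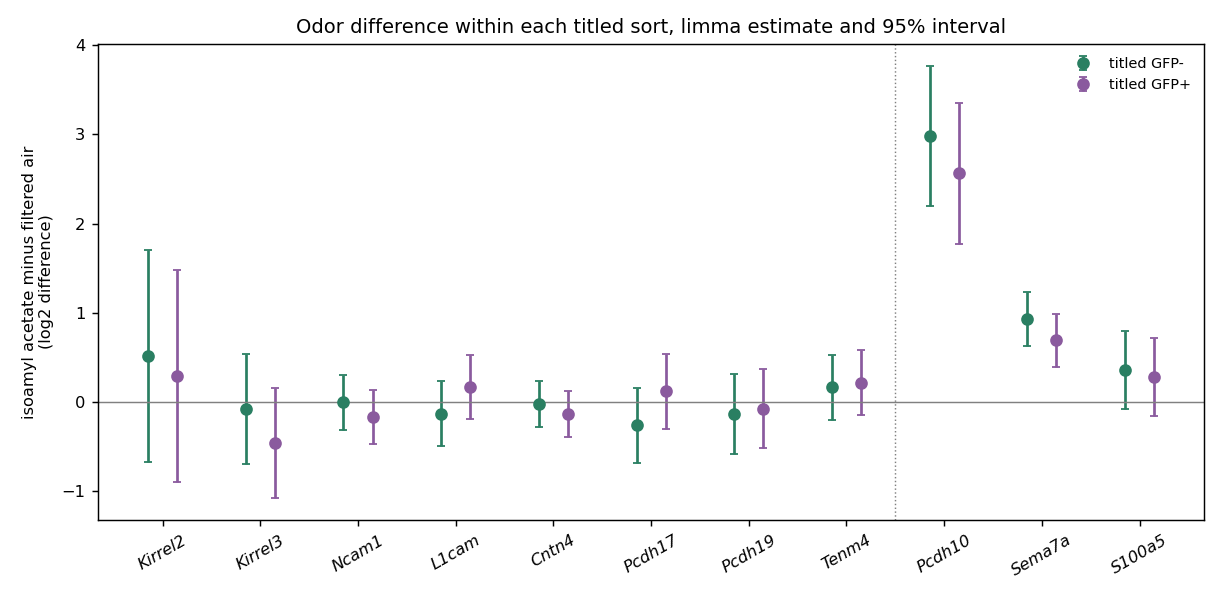
Difference between isoamyl acetate and filtered air (log2) in libraries titled GFP- (green) and titled GFP+ (purple), as limma estimates with 95% intervals, for the 8 adhesion genes and, right of the dotted line, 3 comparison genes. Every interval of the 8 genes holds 0, while those of Pcdh10 and Sema7a lie above 0 in both sorts.

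A pair of genes from the wider lists, which were chosen with earlier results of these data known, was called with odor. Pcdh10, a delta protocadherin of olfactory axons and a relative of Pcdh17 and Pcdh19, averaged 9.07 ± 0.78 in vehicle and 12.06 ± 0.40 in odor libraries titled GFP- (SD, n = 4 each). The groups did not overlap, and the difference was 2.98 (interval 2.20 to 3.77; limma, adjusted p = 0.00332). It exceeded the 95th percentile of the negative controls in 4 of 4 odor libraries but in 1 of 4 vehicle libraries, so the vehicle level lay mostly within the negative-control spread. With each vehicle library raised to that percentile where it lay below it, Pcdh10 was at least 4.71-fold higher in odor. In libraries titled GFP+ its means were 7.87 ± 0.66 in vehicle and 10.44 ± 0.48 in odor (SD, n = 4 each), with 0 of 4 and 4 of 4 libraries above the percentile, which makes it at least 1.90-fold higher by the same rule. The fitted difference there was 2.56 (limma, adjusted p = 0.0384), and it was not called with arrays centred on their medians (limma, adjusted p = 0.0541), with the compared groups alone (0.273) or in 6 of the 8 fits that left out a pool (up to 0.264). Sema7a, a membrane-bound semaphorin known to act in olfactory synapse formation, was 0.93 higher in odor libraries titled GFP- (limma, adjusted p = 0.0342) and 0.69 higher in those titled GFP+, which did not pass the test (limma, adjusted p = 0.416). In libraries titled GFP-, the Sema7a call was lost with centring on mature neuron markers (limma, adjusted p = 0.187) and the compared groups alone (0.601). It was also lost in each of the 8 fits without a pool (limma, adjusted p = 0.0729 to 0.364). A block on the pool number, which matches odor and vehicle pools of different mice, lost it too (limma, adjusted p = 0.296). Pcdh10 and Sema7a were also lower in libraries titled GFP+ than in libraries titled GFP-, with differences of -1.20 and -0.59 in vehicle and -1.62 and -0.83 in odor, as S100a5 was.

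The wider families put the 8 genes among their relatives. Of 65 further adhesion and guidance genes measured, 5 were higher and 9 lower in libraries titled GFP+ of vehicle mice, and 7 higher and 11 lower in odor mice, with a median difference of -0.26 and -0.21. That is 14 and 18 of 65 called, beside 17.3% and 20.9% of all probe sets, and the median of all probe sets was -0.13 and -0.14. With arrays centred on their medians 46 of the 65 were called lower in vehicle and 42 in odor, beside 62.5% and 61.6% of all probe sets. Of the genes named from these lists, Cdh6, Cdh8, Cntn2, Cntn5, Dscaml1, Nrcam and Tenm3 exceeded the 95th percentile of the negative controls in 0 of 16 libraries and Alcam in 3, so their values lie mostly within the spread of probe sets that target nothing.

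Of 8 measured delta protocadherins related to Pcdh17 and Pcdh19, 3 fell and 0 rose in each condition, beside 7.16% of all probe sets lower in vehicle and 9.86% in odor, and quantile-normalised arrays gave 3 lower and 1 higher in vehicle. Pcdh7 differed by -1.43 in vehicle and -1.24 in odor (limma, adjusted p = 4.33e-07 and 2.17e-06). Pcdh8 differed by -1.29 and -1.59 (limma, adjusted p = 0.0019 and 0.000257), and both were called under all 9 other settings and in all 8 fits without a pool, in both conditions. Pcdh10 differed by -1.20 and -1.62 (limma, adjusted p = 0.0344 and 0.00444). In vehicle 7 of 8 Pcdh10 libraries lay under that percentile, and the difference was not called with the compared groups alone (limma, adjusted p = 0.0615) or in 4 of the 8 fits without a pool (up to 0.179). The median of the list was -0.46 in vehicle and -0.45 in odor.

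Among 21 other Ig-superfamily adhesion genes, 2 rose and 2 fell in each condition. That is 4 of 21 called, near the 17.3% of all probe sets called in vehicle and 20.9% in odor. Alcam, an activated-leukocyte adhesion molecule that is also found on axons, rose by 1.90 in vehicle and 2.08 in odor (limma, adjusted p = 1.07e-05 and 3.4e-06), and Nrcam, an L1-family relative of L1cam, by 0.73 and 0.96, though Nrcam exceeded the median negative control in only 7 of 16 libraries. Alcam was called under all 9 other settings, while the vehicle call of Nrcam was lost under 5 of 9 (limma, adjusted p up to 0.753) and its odor call with values floored at the negative controls (0.365). Dscaml1, a Down syndrome adhesion molecule relative, fell by 0.77 and 0.60, the latter not called with centring on mature neuron markers (limma, adjusted p = 0.0832) or the compared groups alone (0.055). The contactins Cntn2 in vehicle and Cntn5 in odor were called lower, with Cntn2 above the median negative control in 4 libraries and Cntn5 in 0, and neither was called with values floored at the negative controls (limma, adjusted p = 0.0584 and 0.493). Of 3 measured genes linked to Kirrel proteins (Kirrel1, Nphs1 and the scaffold Cask), 0 were called in either condition. Nphs1, nephrin, differed by -0.47 in vehicle (limma, adjusted p = 0.0533). Its vehicle means were 9.59 in libraries titled GFP- and 9.12 in those titled GFP+. Both lay under the mean 95th percentile of the negative controls there, 9.71 and 9.51.

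Of 7 classical and related cadherins, 2 were called in each condition, beside 17.3% of all probe sets in vehicle and 20.9% in odor. Cdh6 was higher by 1.02 and 1.05, Cdh8 was lower in vehicle (above the median negative control in 0 libraries) and Cdh4 fell by 0.91 in odor. The vehicle call of Cdh6 was lost with the pool as a block (limma, adjusted p = 0.0569), quantile normalization (0.0814) and median centring (0.0503), and its odor call with quantile normalization (0.0507) and the compared groups alone (0.0671). Of 9 teneurins, latrophilins and Flrt proteins, 0 were called in vehicle and 3 in odor, beside the same shares of all probe sets. Tenm3 rose by 0.69, and Tenm2 fell by 0.59 and the latrophilin Adgrl3 by 0.36. Quantile-normalised arrays called 0 of these 9 in odor (limma, adjusted p = 0.197, 0.0539 and 0.0644 for Tenm3, Tenm2 and Adgrl3), and the pool block 1 higher and 1 lower. Of 17 guidance genes, 2 rose and 3 fell in vehicle and 3 rose and 3 fell in odor, again beside these shares. Gap43, a growth-cone protein of immature neurons, rose most, by 2.32 in vehicle and 2.39 in odor, with 0 of 8 libraries titled GFP- and 7 of 8 titled GFP+ above the 95th percentile of the negative controls. The ephrin receptor Epha5 fell by 1.04 and 1.09. Markers of immature neurons moved with the sort as well: 10 of 15 were higher in vehicle and 8 of 15 in odor. Of all 22206 probe sets, 2260 were called higher in vehicle and 2449 in odor. The log2 of the summed signals of the immature neuron markers was 17.11 to 17.37 against 16.77 to 16.97 in vehicle and 16.82 to 17.29 against 16.74 to 16.84 in odor. Among them Cd24a did not exceed the median negative control in libraries titled GFP-. The part of immature neurons in these differences was not tested. With odor, 2 of the 65 genes were called higher in libraries titled GFP- (Pcdh10 and Sema7a) and 1 in libraries titled GFP+ (Pcdh10). Of all probe sets, 0.0180% and 0.00901% were called. The lists were chosen with earlier results of these data known, so these counts are a description only.

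**Figure D4:**
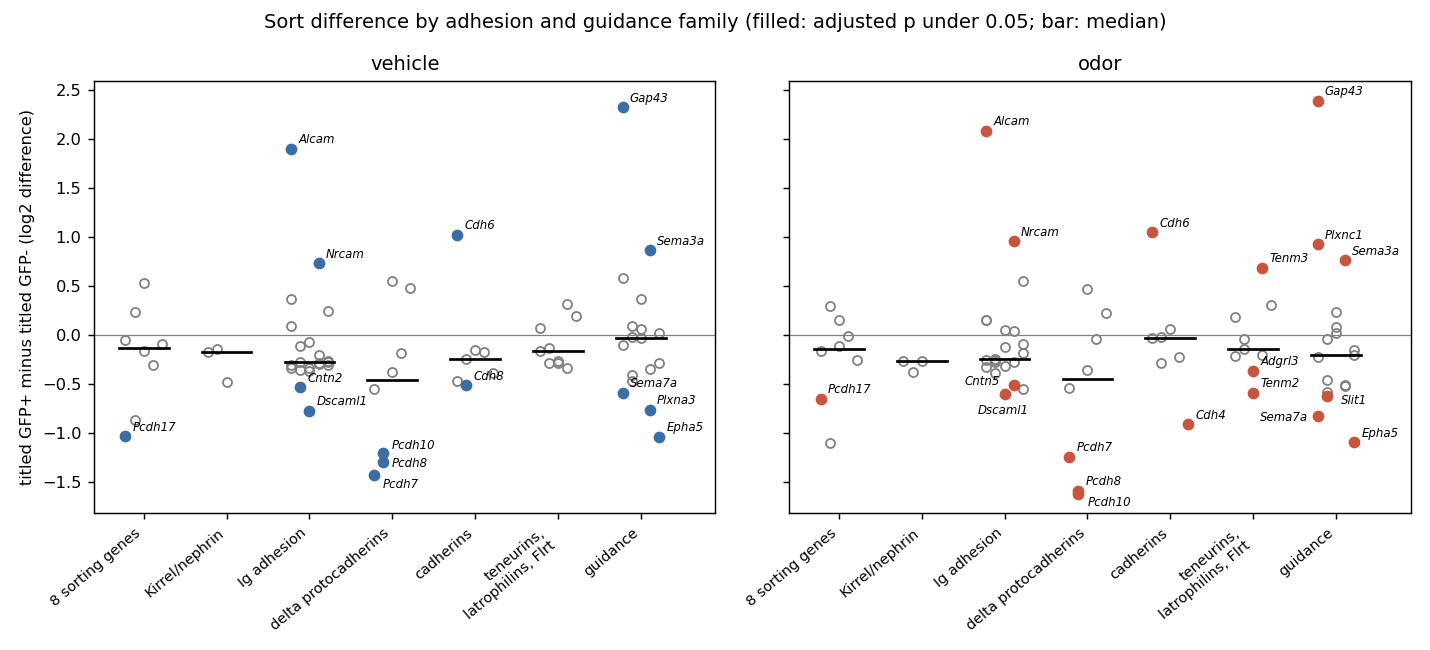
Sort difference (log2, y axis) in vehicle (left, blue) and odor (right, red) for the 8 sorting genes and 6 families of relatives; each circle is a gene, filled and named where its adjusted p is under 0.05, and bars are list medians. Pcdh17 is filled in both panels, as are Pcdh7, Pcdh8 and Pcdh10 near the bottom, while Alcam and Gap43 stand at the top.

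The 8 genes also differed in their spread between pools of a group. Kirrel2 had a within-group SD of 0.92 log2 units, and 88 of 13540 probe sets above the negative controls (0.65%) had an SD at least as large. Kirrel3 followed at 0.46, which 12.4% reached. Pcdh19 (0.32), Pcdh17 (0.29), Tenm4 (0.24) and L1cam (0.24) lay in the middle, and Ncam1 (0.19) and Cntn4 (0.14) were among the steadier probe sets, with 75.5% and 92.1% varying at least as much. The pool means of Kirrel2, Kirrel3 and L1cam varied more than their pool differences did (SD 0.90 against 0.38, 0.43 against 0.34 and 0.22 against 0.18). For Ncam1, Cntn4, Pcdh17, Pcdh19 and Tenm4 it was the reverse, widest for Tenm4 at 0.16 against 0.36. The difference of 2 unrelated libraries varies more than their mean, so the SDs of a pair are not on a like scale.

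Genes whose signal followed each member most closely within groups were listed by Pearson's r over the 16 libraries, after centring each array on its median and subtracting group means, among 11923 candidates. These r values describe 16 points that share pools and arrays, and the highest of so many candidates is high by selection. Kirrel2 was followed by Lrrc3b (r = 0.97), Trim45 (0.97) and Rasl11a (0.95), and Kirrel3 by Tbc1d7 (0.95), Klhdc3 (0.93) and Fbxo36 (0.92). Ncam1 was followed by Dpysl2 (0.95), L1cam by Abcc4 (0.93) and Cntn4 by the odorant receptor gene Olfr800 (0.90). Pcdh17 was followed by Frs3 (0.92), Pcdh19 by Dcp2 (0.94) and Tenm4 by Ube2o (0.85). Mean log2 signals of Olfr800 (6.76), Frs3 (6.38) and Dcp2 (8.39) lay under the 95th percentile of the negative controls, 9.39 to 10.09 across arrays. Tbc1d7, at 9.83, lay inside that range. The 8 genes were left out of the candidates, so none could be listed for another. The highest r between members was that of Ncam1 and Cntn4 (0.72), and the lowest was that of Kirrel3 and Pcdh19 (-0.59).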

How the data were processed

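All 16 arrays were analysed from a table of log2 signals per probe set, which the authors deposited. The submitters' processing notes name Affymetrix Expression Console as the tool. Background correction and normalization were not stated in any label or header read here. Values ran from 1.68 to 19.33, and no pair of arrays was identical. Controls (6640 of 28846 probe sets) were left out of the tests, and 19572 of the remaining 22206 carried 1 gene symbol and 2634 none. The precision is limited by the number of arrays, 4 pools a group.

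A linear model on 4 group means was fitted to all 22206 probe sets with limma 3.58.1 in R 4.3.3 (12 residual degrees of freedom, moderated by a prior of 4.49), two-sided, with Benjamini-Hochberg adjustment over all probe sets and a threshold of 0.05; it was tested on simulated data with known changes. Tables and motif searches used Python 3.11.15. The 8 genes are named in every comparison. From each family list, genes past the threshold with the largest differences are named, and otherwise those with the largest differences. Genes and lists were chosen with earlier results of these data known.

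The 2 libraries of a pool come from the same 3 mice, and their deviations from the group means had r of 0.158 to 0.399 in all 8 pools, so the pool was tried as a block. Odor and vehicle pools of the same number are different mice. Their libraries of the same title gave r of 0.073 to 0.406, so the r within pools does not set shared mice apart from a shared number. Other alternatives were other scalings, a filter and a floor on dim probe sets, a trended prior, fits on the compared groups alone, and leaving out each pool.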

Additional observations from a re-analysis of the deposited data

Results flagged for a closer look

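In 3 of 32 groups of 4 libraries tested, the highest or lowest library stood apart from the other 3 by more than Dixon's 95% critical value, which chance does in about 1 group in 20. The Kirrel2 signal of odor pool 2 titled GFP+ was 15.997, above the other 3 libraries of its group at 13.58 to 13.95; the same pool also held the highest Kirrel2 library titled GFP-. The Ncam1 signal of odor pool 2 titled GFP- was 16.99, above the others at 16.55 to 16.62. The Cntn4 signal of vehicle pool 4 titled GFP+ was 16.33, below the others at 16.53 to 16.56.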

How the results depend on the processing

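No result changed direction past the threshold under any alternative run. Under the other alternatives 341 values stayed the same, and of the single-gene values 11 passed the threshold newly and 2 lost it. The 341 include the Kirrel2 minus Kirrel3 change in vehicle and in odor. That change has no threshold and counted as the same because it moved by less than its SD. With a pool left out, 317 single-gene values kept their side of the threshold and 3 lost it. Centring arrays on their medians called 15630 probe sets in vehicle and 15554 in odor for the sort difference, with 11.3% and 12.1% of the calls higher against 58.7% and 52.8% as deposited, and 5 of the 8 genes in each. Quantile normalization gave 42.1% and 41.4% higher, and centring on the mean of 23 mature neuron markers, of which Calb2 was itself 4.47 and 4.27 higher, 53.9% and 64.3%. Of the 8 genes, centring on mature neuron markers or fitting the compared groups alone called 0 in odor; the pool as a block (replicate block) called 3 in vehicle and 2 in odor and changed no other call of the 8. With pools left out, 1 gene was called in vehicle each time and 0 to 1 in odor, and the sort difference in odor had 3037 (without odor pool 1) to 4430 probe sets. For odor against vehicle in libraries titled GFP+, 2 probe sets were called as deposited, and 0 with median centring or the compared groups alone. A trended prior, the pool as a random effect or a block on the shared pool number each called 1. Fits with a pool left out called 0 to 3. The interaction had 1 probe set, and 0 with the pool block. Numbers shared by odor and vehicle pools gave r of 0.073 to 0.406, and blocking on them called none of the 8. The 4 pools a group limit what could be detected, most of all for Kirrel2, and Tenm4 did not rise above the spread of the negative controls.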
